A study of Mus musculus with 40 samples.

Results

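The genes described here are 38 that encode the enzymes, regulators and carriers by which a muscle fiber takes up glucose, stores it as glycogen and breaks it down to lactate. They were listed by name for these roles, with earlier results of these data known, and no measured value enters the rule. The tables of gene values held 37 of the 38 symbols among 22844 entries. The levels of Ppp1r3d, the remaining symbol, were not analysed here. Aldoa had 2 entries, of which the second reached at most 51 counts in a library and stayed below the filter on low counts, so that 37 entries were tested among 13543 genes.

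The samples were 40 extensor digitorum longus (EDL) muscles, a fast hindlimb muscle, of mice in 8 groups of 5, with 1 RNA library per mouse. TSCmKO mice lack Tsc1 in skeletal muscle from the start, which leaves the growth kinase complex mTORC1 active in the fibers, and control mice (CON) were littermates that carry the floxed Tsc1 allele (Tsc1 fl/fl) without the Cre recombinase. Both genotypes share the strain label Tsc1tm1Djk/J, both were studied at 3 and 9 months (prefix 3m or 9m), and both received vehicle or the mTORC1 inhibitor rapamycin (suffix +RM) by intraperitoneal injection for 3 days before dissection. The labels and the study text give different doses of rapamycin, so that none is given here. The promoter that drives Cre is not given in the sources used here. RNA came from whole muscle, which also holds vessels, blood, tendon, nerve and fat, and in such samples fewer fibers of a type and less RNA per fiber cannot be told apart.

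Glycolysis splits glucose into pyruvate, which lactate dehydrogenase turns into lactate when the cell needs to regenerate NAD quickly. Fast fibers depend on this route and on glycogen, which phosphorylase breaks down at the start of contraction, and they build most steps from muscle isoforms (Pfkm, Pgam2, Eno3, Ldha) that differ from those of other tissues (Pfkl, Pfkp, Pgam1, Eno1) or of slow and heart muscle (Ldhb). Glucose enters through Slc2a4 (GLUT4), which insulin and contraction bring to the surface, and through Slc2a1 (GLUT1), which sits there at rest.

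Levels are TMM-scaled CPM (counts set to a common library size) unless a sentence names TPM, which also divides by transcript length. Differences are log2 fold changes with their standard error (SE), and a gene is called where edgeR's quasi-likelihood test gave a Benjamini-Hochberg adjusted p under 0.05 over all 13543 genes. Total counts per library were 8883870 to 35224669. Tsc1 was at 24.4 to 35.8 CPM in 9mTSCmKO and 26.5 to 30.7 CPM in 3mTSCmKO, below the 51.3 to 122 CPM of 9mCON and the 84.1 to 134 CPM of 3mCON, and all 20 TSCmKO libraries lay below all 20 control libraries. The 12 fast-fiber markers that were examined (Myh4, Tnnt3 and others) were all detected, with summed levels of 165619 to 181316 CPM in 9mCON.

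The members were among the most abundant transcripts of the muscle. By mean TPM over all libraries Aldoa (aldolase) held rank 9 of all entries at 16694 TPM, Gapdh rank 14 at 11944 TPM, Eno3 (muscle enolase) rank 15 at 7582 TPM and Pygm (muscle glycogen phosphorylase) rank 18 at 6149 TPM. At the other end were Pfkp (platelet phosphofructokinase) at 4.92 TPM, Pfkl (liver phosphofructokinase) at 6.79 TPM and Hk1 (hexokinase of most tissues) at 8.33 TPM. The muscle isoform stood far above its counterpart at each step with both, as for Pfkm at 2303 TPM and Pgam2 at 2493 TPM against Pgam1 at 17.4 TPM.

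Together the 37 symbols found made up 6.32% ± 0.410 of all TPM in 9mCON and 4.90% ± 0.637 in 9mTSCmKO (SD, n = 5). The 5 libraries of 9mCON ran from 5.90 to 6.93% and those of 9mTSCmKO from 3.95 to 5.46%, so that the groups did not overlap. At 3 months the sum was 6.74% ± 0.362 in 3mCON and 5.47% ± 0.540 in 3mTSCmKO. These groups overlapped, with replicate 2 of 3mTSCmKO at 6.39% and replicate 3 of 3mCON at 6.295%. With rapamycin it was 5.90% ± 0.505 in 9mTSCmKO+RM and 6.45% ± 0.397 in 3mTSCmKO+RM, each between the vehicle TSCmKO group and the controls of that age. In treated controls it was 6.97% ± 0.481 in 9mCON+RM and 7.02% ± 0.318 in 3mCON+RM. Aldoa and Gapdh carried most of the differences between treated and untreated mice. Both together held 2.69% ± 0.203 in untreated and 3.47% ± 0.266 in treated 9-month controls, and 2.05% ± 0.320 in untreated and 2.89% ± 0.356 in treated 9-month TSCmKO muscle. The other 35 symbols held 3.63% ± 0.257, 3.50% ± 0.329, 2.86% ± 0.352 and 3.01% ± 0.280 in the same order, so that their mean moved little with the drug. In younger mice these 35 were, again in that order, at 3.92% ± 0.330, 3.53% ± 0.204, 3.19% ± 0.268 and 3.24% ± 0.165, with a lower mean in treated than in untreated controls. The 17 glycolysis members from Hk1 to Ldhb carried most of the sum, with 5.30% ± 0.317 in 9mCON and 4.10% ± 0.550 in 9mTSCmKO, and the 10 glycogen members found held 0.882% ± 0.162 and 0.715% ± 0.117. These sums are descriptions without a test, and since TPM of a library add up to a fixed total they also move with every other gene.

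**Figure D1:**
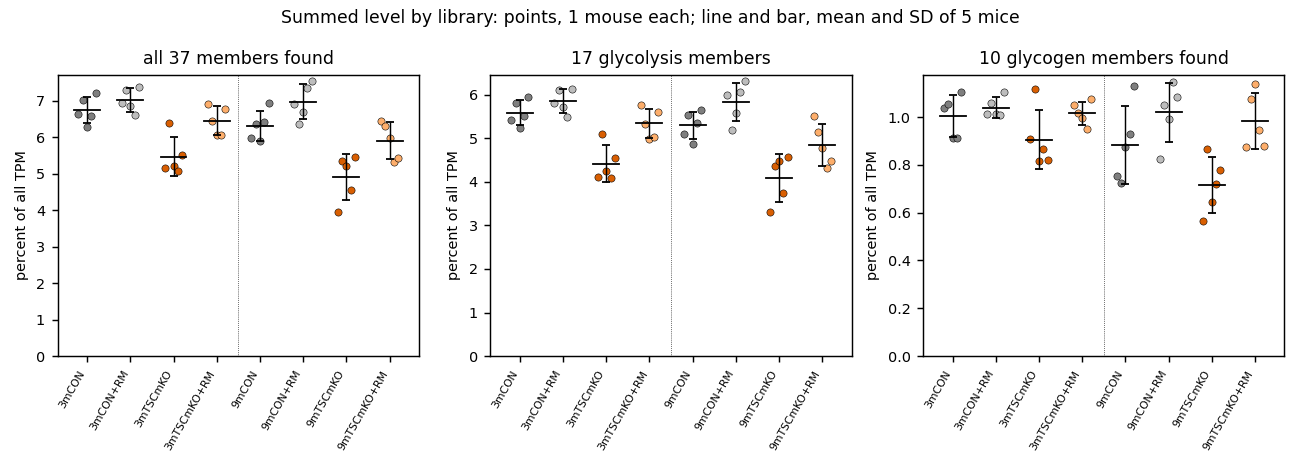
Summed level of the members in percent of all TPM (y axis) by group (x axis), for the 37 symbols found, the 17 glycolysis members and the 10 glycogen members found. Each point is 1 mouse, and lines and bars give the mean and SD of 5. The 9mTSCmKO points of the first panel range from 3.95 to 5.46%, below all 9mCON points.

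5 members on which the results turn are shown here with their promoters, from 250 bases before to 50 bases after the annotated start, 5′ to 3′ on the strand of the gene (RefSeq, GRCm38.p6). Capitals mark ACGTG on either strand, the core shared by the elements of hypoxia-inducible factors and by the E-box CACGTG, so that 1 CACGTG holds it on both strands. Ldha and Ldhb are printed because both subunits of 1 enzyme moved in opposite directions, Hk1 and Slc2a1 because they stand at the entry of glucose, and Fbp2 for its large fall.
Ldha, chr7:46845554-46845853, plus strand: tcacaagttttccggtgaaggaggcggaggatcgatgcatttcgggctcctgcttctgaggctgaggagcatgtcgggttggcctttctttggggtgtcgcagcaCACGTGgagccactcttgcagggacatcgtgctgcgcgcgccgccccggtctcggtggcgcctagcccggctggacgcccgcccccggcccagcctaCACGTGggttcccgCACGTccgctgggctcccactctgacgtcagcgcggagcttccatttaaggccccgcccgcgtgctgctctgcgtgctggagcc
Ldhb, chr6:142507908-142508207, minus strand: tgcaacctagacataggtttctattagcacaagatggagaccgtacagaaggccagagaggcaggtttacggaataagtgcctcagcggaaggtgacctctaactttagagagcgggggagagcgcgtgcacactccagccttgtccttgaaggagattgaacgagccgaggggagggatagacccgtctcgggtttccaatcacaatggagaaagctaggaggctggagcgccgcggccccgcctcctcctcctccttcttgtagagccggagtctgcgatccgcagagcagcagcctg
Hk1, chr10:62379859-62380158, minus strand: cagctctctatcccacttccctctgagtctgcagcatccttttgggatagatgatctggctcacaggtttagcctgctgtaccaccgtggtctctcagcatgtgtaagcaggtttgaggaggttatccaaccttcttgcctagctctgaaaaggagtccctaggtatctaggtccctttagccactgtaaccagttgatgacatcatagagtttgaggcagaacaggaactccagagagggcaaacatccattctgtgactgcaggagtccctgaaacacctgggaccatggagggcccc
Hk1, chr10:62340372-62340671, minus strand: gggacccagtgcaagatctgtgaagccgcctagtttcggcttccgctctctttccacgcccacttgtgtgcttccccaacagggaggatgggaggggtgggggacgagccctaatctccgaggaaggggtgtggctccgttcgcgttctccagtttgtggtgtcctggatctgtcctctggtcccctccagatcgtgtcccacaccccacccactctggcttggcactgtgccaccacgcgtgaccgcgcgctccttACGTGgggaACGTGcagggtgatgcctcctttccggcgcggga
Slc2a1, chr4:119108495-119108794, plus strand: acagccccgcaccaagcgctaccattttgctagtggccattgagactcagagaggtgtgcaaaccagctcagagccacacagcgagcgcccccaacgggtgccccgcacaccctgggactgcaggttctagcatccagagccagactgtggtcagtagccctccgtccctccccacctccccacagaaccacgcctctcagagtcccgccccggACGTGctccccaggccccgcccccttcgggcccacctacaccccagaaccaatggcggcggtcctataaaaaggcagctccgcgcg
Fbp2, chr13:62858351-62858650, minus strand: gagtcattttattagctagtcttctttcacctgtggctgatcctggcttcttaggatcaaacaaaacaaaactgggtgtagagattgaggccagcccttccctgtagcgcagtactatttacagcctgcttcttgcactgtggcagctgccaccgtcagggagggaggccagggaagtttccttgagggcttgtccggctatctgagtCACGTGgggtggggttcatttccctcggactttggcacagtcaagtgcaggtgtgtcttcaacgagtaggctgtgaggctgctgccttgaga
The Ldha promoter held CACGTG at 2 positions and ACGTG at 1 more, and the Fbp2 promoter held 1 CACGTG. In Slc2a1 the letters occurred 1 time. Hk1 has 2 annotated starts, of which the downstream one held 2 copies and the upstream one 0, and in Ldhb there were 0. A second annotated Ldha promoter also held 0 and was for that reason not printed. RefSeq gave 53 promoters for 36 of the 38 symbols, and ACGTG occurred in 24 of them (45.3%), against 19.6% of all 32851 promoters of this length and 24.6% of the 13329 promoters of genes past the filter. CACGTG occurred in 9 of the 53 (17%), against 7.15% and 9.70%. Several promoters belong to 1 gene and overlap, and a match is a description of letters, not a binding site.

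In 9mTSCmKO against 9mCON, 17 of the 37 tested members were called, 5 higher and 12 lower, beside 37.9% of all genes (19.1% higher and 18.9% lower). The members that rose were Ldhb, Hk1, Slc2a1, Gbe1 and Slc16a1, and those that fell were Fbp2, Gpd1, Pgam2, Ldha, Pygm, Phkg1, Slc2a4, Eno3, Aldoa, Phkb, Pgk1 and Tpi1. The median log2 fold change was -0.13 over the members and -0.02 over all genes. By DESeq2 the split of the members was 7 higher and 12 lower, and by limma on log2(TPM + 1) it was 9 and 12. In 3mTSCmKO against 3mCON, 11 members were called, 5 higher and 6 lower, beside 19.8% of all genes (11.4% higher and 8.32% lower). The median was -0.08 over the members and -0.02 over all genes. That count was 7 without replicate 4 of 3mCON or without replicate 4 of 3mTSCmKO. Its split changed to 5 higher and 3 lower with no filter on low counts and to 5 and 8 under upper-quartile scaling, where that of all genes went from 1549 higher and 1127 lower to 1349 and 1388.

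In 9mTSCmKO+RM against 9mTSCmKO, 22 members were called, 7 higher and 15 lower, beside 32.6% of all genes (15.8% higher and 16.8% lower). In 3mTSCmKO+RM against 3mTSCmKO, 19 were called, 4 higher and 15 lower, beside 23.6% of all genes (10.6% higher and 13% lower). Under upper-quartile scaling the split of all genes turned to 1810 higher and 1438 lower, while that of the members was 5 and 14. Median log2 fold changes were -0.27 and -0.16 over the members and -0.04 and 0.01 over all genes. In controls the drug left 7 members called at 9 months, 3 higher and 4 lower, beside 11.8% of all genes (5.03% higher and 6.82% lower). At 3 months 0 were called, beside 0.679% of all genes (0.362% higher and 0.318% lower), where 10 members had an unadjusted p under 0.05, and DESeq2 and limma called 1 and 2. In the 9-month controls upper-quartile scaling gave 2 members higher and 6 lower. The count of 7 was 4 without replicate 1 or without replicate 5 of 9mCON+RM.

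Against vehicle controls, 18 members were called in 9mTSCmKO+RM (3 higher and 15 lower), beside 31.9% of all genes (15.7% higher and 16.2% lower). In 3mTSCmKO+RM 15 were called (1 higher and 14 lower), beside 16.7% (8.98% higher and 7.71% lower). Between ages, 0 members were called in 9mCON against 3mCON, beside 1.02% of all genes (0.679% higher and 0.34% lower), with 2 at an unadjusted p under 0.05 and 0 called by DESeq2 or limma. In 9mTSCmKO against 3mTSCmKO 18 were called (8 higher and 10 lower), beside 37.4% (19.1% higher and 18.3% lower). Age coincides with insert size in these libraries (175 to 239 nt at 3 months, 223 to 308 nt at 9 months), and with insert size as a term the last count was 2, Hk1 and Slc2a1. In tests of whether 2 effects differ, 4 members were called for genotype by age, all with higher values at 9 months, beside 4.94% of all genes (3.01% higher and 1.93% lower). For rapamycin by genotype at 9 months 5 were called, all lower, beside 4.87% (2.56% higher and 2.31% lower), and upper-quartile scaling gave 1 higher and 5 lower. At 3 months 1 was called, lower, beside 3.45% (1.36% higher and 2.09% lower). The count for genotype by age ran from 1 without replicate 5 of 3mTSCmKO to 7 without replicate 5 of 9mTSCmKO, and was 2 without replicate 3 of 3mCON, replicate 1 or 3 of 3mTSCmKO, replicate 3 or 4 of 9mCON or replicate 3 of 9mTSCmKO. The single call at 3 months became 2 without replicate 2 of 3mCON. Comparisons that share a group, such as the deletion and the rapamycin effect in TSCmKO muscle, share its 5 libraries, so that their values are given side by side and not as separate evidence.

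Some calls of single members were lost in other fits. With only the groups compared in the fit, Tpi1, Pgk1 and Phkb lost their call in 9mTSCmKO against 9mCON, and Ldhb and Gpd1 in 3mTSCmKO against 3mCON. In 9mTSCmKO+RM against 9mTSCmKO the same fit lost Gpi1, Pfkl, Aldoa, Tpi1, Gapdh and Gyg, and in 9mCON+RM against 9mCON it lost Gpi1, Aldoa, Tpi1, Pgam2, Gyg and Slc2a1. The interactions of rapamycin and genotype at 9 months for Hk1, Gbe1 and Slc2a1, and those of genotype and age for Ldhb and Gbe1, were not called there either. With no filter on low counts the 3-month calls of Tpi1, Pgk1 and Gpd1 were lost, and limma on log2(TPM + 1) did not call Gbe1 for the deletion at 3 months or Pfkfb2 for rapamycin in TSCmKO muscle at either age. The fall of Gpd1 with rapamycin in 3mTSCmKO muscle was lost in 5 of the 8 other settings, namely upper-quartile scaling, no filter, insert size as a term, only the groups compared and limma. Insert size as a term and limma also ended the call of the interaction of rapamycin and genotype for Slc16a3 at 9 months.

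**Figure D2:**
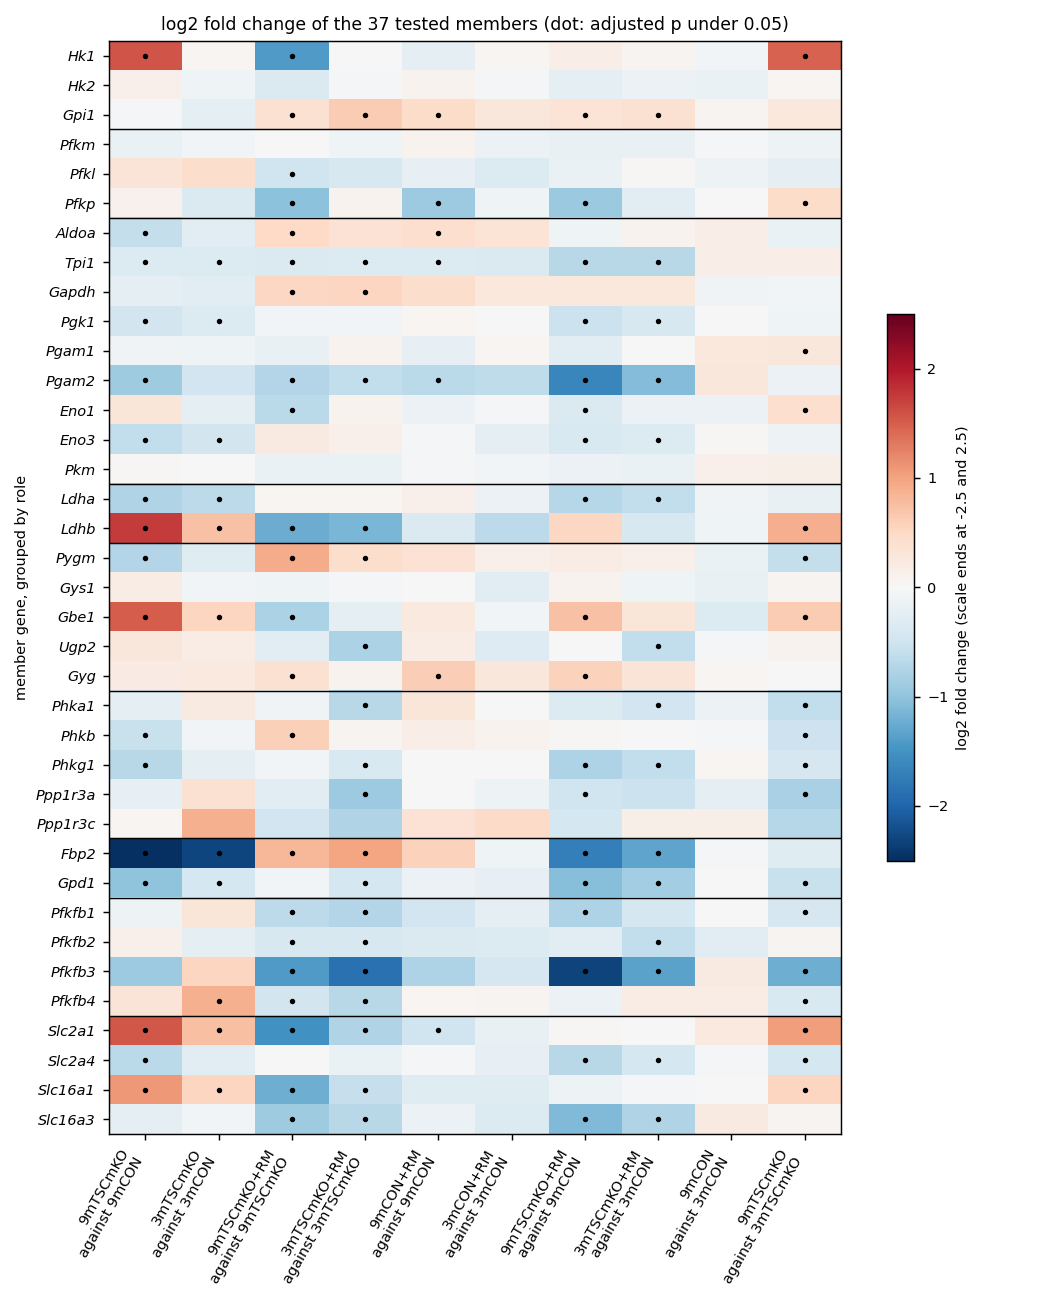
Log2 fold change (color) of the 37 tested members (rows, grouped by role) in the 10 comparisons between groups (columns). Dots mark calls at an edgeR adjusted p under 0.05. Ldhb, Hk1, Slc2a1, Gbe1 and Slc16a1 are red in 9mTSCmKO against 9mCON and blue in 9mTSCmKO+RM against 9mTSCmKO, and the 4 Pfkfb genes are blue in both rapamycin comparisons of TSCmKO muscle.

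Of the glucose carriers, transcripts of the resting form rose and those of the insulin-regulated form fell. Slc2a1 (ENSMUSG00000028645, chromosome 4, 119108711 to 119137983, GRCm38, like all gene positions here) was at 15.2, 12.2, 10.4, 11.95 and 12.4 CPM in the 5 libraries of 9mCON and at 38.7, 33.8, 46.9, 32.1 and 30.4 CPM in those of 9mTSCmKO. The groups did not overlap, and the rise was called (log2 fold change 1.55, SE 0.16, edgeR adjusted p = 7.7e-10). In younger mice the gene was at 9.07, 8.37, 12.4, 10.3 and 12.2 CPM in 3mCON and 14.6, 19.01, 15.8, 21.2 and 17.3 CPM in 3mTSCmKO, again without overlap (log2 fold change 0.75, SE 0.16, edgeR adjusted p = 0.000709). The genotype effect was larger at 9 than at 3 months by 0.80 on the log2 scale (SE 0.23, edgeR adjusted p = 0.0318 for the interaction), but the call was lost without any 1 of 3mCON replicates 3 or 5 or 3mTSCmKO replicates 1, 3 or 5 or 9mCON replicates 3 or 4 or 9mTSCmKO replicate 3, with edgeR adjusted p up to 0.0686, and with insert size as a term it was not called.

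Rapamycin brought Slc2a1 in TSCmKO muscle back to the range of the controls. It was at 14.3, 10.9, 12.4, 11.4 and 14.7 CPM in 9mTSCmKO+RM and 10.6, 9.62, 9.76, 11.2 and 11.1 CPM in 3mTSCmKO+RM, against vehicle TSCmKO values that lay higher in every library (-1.51, edgeR adjusted p = 4.65e-09 at 9 months and -0.75, edgeR adjusted p = 0.000512 at 3 months). Against vehicle controls of the same age it was not called at 9 (0.03, edgeR adjusted p = 0.908) or 3 months (-0.01, edgeR adjusted p = 0.987). In 9mCON+RM, at 9.79, 9.46, 13.2, 6.53 and 5.13 CPM, it also fell against 9mCON (log2 fold change -0.49, SE 0.17, edgeR adjusted p = 0.0451). This call was lost without any 1 of 9mCON replicates 1, 2, 4 or 5 or 9mCON+RM replicates 1, 2, 4 or 5, with edgeR adjusted p up to 0.183. The fall was larger in TSCmKO than in CON muscle at 9 months (interaction -1.02, SE 0.23, edgeR adjusted p = 0.00687).

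Since Slc2a1 is also high in endothelium, endothelial markers are given beside it, with erythroid markers for the blood in the samples. The 6 endothelial markers summed to 267 to 405 CPM in 9mCON and 224 to 351 CPM in 9mTSCmKO, with 0 of 6 called higher and 3 called lower, and the 6 erythroid markers to 355 to 7069 CPM and 276 to 1197 CPM, with 0 called. The part of these cells in the 9-month rise of Slc2a1 was not tested. At 3 months the erythroid sums were 203 to 1264 CPM in 3mCON, 468 to 9043 CPM in 3mTSCmKO, against 369 to 1598 CPM in 3mTSCmKO+RM, with 1 of 6 called higher with the deletion, and a single library set the high end in 3mTSCmKO. Without the highest library of each group the mean was 698 CPM in 3mTSCmKO and 490 CPM in 3mCON. The part of these cells in the 3-month result was not tested. All 6 markers of each list were detected in every group.

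Slc2a4 (ENSMUSG00000018566, chromosome 11, 69942539 to 69948188) moved the other way. It was at 403, 530.04, 481, 549.9 and 534 CPM in 9mCON and 282, 331, 301, 317 and 339.6 CPM in 9mTSCmKO, without overlap (log2 fold change -0.67, SE 0.11, edgeR adjusted p = 5.58e-06). The 3-month groups did not overlap either, but their difference was not called (-0.28, edgeR adjusted p = 0.0674). Rapamycin left it at 395, 307, 306, 275 and 269 CPM in 9mTSCmKO+RM, not called against 9mTSCmKO (-0.02, edgeR adjusted p = 0.923), and it stayed called below 9mCON (-0.69, edgeR adjusted p = 5.3e-06).

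Of the lactate carriers only Slc16a1 was called for the deletion. Slc16a1 (ENSMUSG00000032902, chromosome 3, 104638668 to 104658462) encodes MCT1, the carrier typical of oxidative fibers, and was at 50.7, 51.99, 62.2, 66.4 and 56.97 CPM in 9mCON and 129, 126, 131, 128 and 97.1 CPM in 9mTSCmKO. All 9mTSCmKO libraries were higher (log2 fold change 1.08, SE 0.14, edgeR adjusted p = 6.19e-08). With rapamycin the 9mTSCmKO+RM libraries were at 44.5, 59.2, 49.9, 58.7 and 51.3 CPM, all below the vehicle group (log2 fold change -1.21, SE 0.14, edgeR adjusted p = 2e-08), and the fall exceeded that in controls (interaction -0.90, SE 0.20, edgeR adjusted p = 0.00513). Slc16a1 also rose at 3 months, with 58.3 ± 7.30 CPM in 3mCON against 84.1 ± 16.6 CPM in 3mTSCmKO (SD, n = 5) and overlap (log2 fold change 0.53, SE 0.14, edgeR adjusted p = 0.00456).

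Slc16a3 (ENSMUSG00000025161, chromosome 11, 120948480 to 120960868) encodes MCT4, the carrier typical of glycolytic fibers, and the deletion left it without a call at either age (-0.22, edgeR adjusted p = 0.238 at 9 months). Rapamycin lowered it from 187, 169, 174, 139 and 158 CPM in 9mTSCmKO to 102, 97.9, 85.4, 89.8 and 73.97 CPM in 9mTSCmKO+RM, without overlap (log2 fold change -0.88, SE 0.15, edgeR adjusted p = 1.13e-05). In 3mTSCmKO+RM it fell as well (-0.69, edgeR adjusted p = 0.00039), and in controls it was not called at either age (-0.16, edgeR adjusted p = 0.559 at 9 months). The interaction at 9 months was -0.73 (SE 0.20, edgeR adjusted p = 0.0302). It was not called without any 1 of 9mCON+RM replicates 4 or 5 or 9mTSCmKO+RM replicates 3 or 5, with edgeR adjusted p up to 0.0646.

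Hexokinases trap glucose in the cell by phosphorylation. Hk1 (ENSMUSG00000037012, chromosome 10, 62268855 to 62379908) was at 15.4, 9.43, 11.6, 10.7 and 13.4 CPM in 9mCON and 48.6, 34.7, 50.6, 26.4 and 21.1 CPM in 9mTSCmKO, with all 5 higher and the spread among them wide (log2 fold change 1.58, SE 0.20, edgeR adjusted p = 6.23e-08). At 3 months it was at 16.3, 8.92, 11.9, 11.7 and 14.3 CPM in 3mCON and 12.4, 13.3, 13.2, 12.9 and 13.5 CPM in 3mTSCmKO, with no call (0.04, edgeR adjusted p = 0.91). The difference between the ages was 1.54 on the log2 scale (SE 0.28, edgeR adjusted p = 0.000847), and it was called in all 20 fits without 1 library and with insert size as a term. Hk1 lay at 12.99, 10.3, 19.4, 13.1 and 11.9 CPM in 9mTSCmKO+RM (log2 fold change -1.42, SE 0.20, edgeR adjusted p = 9.73e-07), below all libraries of 9mTSCmKO, and this fall exceeded that in controls (interaction -1.20, SE 0.29, edgeR adjusted p = 0.0104).

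Hk2 (ENSMUSG00000000628, chromosome 6, 82725025 to 82774454), the insulin-regulated hexokinase of muscle, was not called in any of the 13 comparisons. It was at 302 ± 86.7 CPM in 9mCON and 329 ± 77.4 CPM in 9mTSCmKO (SD, n = 5). Gpi1, which turns glucose 6-phosphate into fructose 6-phosphate, was not called for the deletion at either age and was called higher with rapamycin in 3 of the 4 comparisons of treated with untreated mice. It went up from a mean of 863 ± 107 to 1338 ± 130.01 CPM at 3 months (log2 fold change 0.63, SE 0.11, edgeR adjusted p = 4.9e-05), from 1039.6 ± 146 to 1352 ± 196 CPM at 9 months (0.38, edgeR adjusted p = 0.00881) and from 1072 ± 107 to 1468 ± 164 CPM in 9-month controls (0.45, edgeR adjusted p = 0.00601). The 12 fast-fiber markers summed to 199214 to 210662 CPM in 9mCON+RM against 165619 to 181316 CPM in 9mCON, also higher without overlap, and their part in the rise of Gpi1 was not tested.

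Phosphofructokinase commits sugar to glycolysis. Its muscle form Pfkm (3776 ± 462 CPM in 9mCON and 3360.4 ± 593 CPM in 9mTSCmKO) was not called in any comparison. Pfkp was at 10.98, 11.2, 10.8, 8.02 and 7.92 CPM in 9mTSCmKO, against 5.16, 3.63, 5.71, 4.48 and 4.94 CPM in 9mTSCmKO+RM (log2 fold change -1.03, SE 0.16, edgeR adjusted p = 5.85e-06). In controls it went from 9.86, 8.45, 8.12, 8.13 and 11.001 CPM in 9mCON to 3.31, 4.01, 6.44, 4.90 and 5.67 CPM in 9mCON+RM (log2 fold change -0.91, SE 0.16, edgeR adjusted p = 0.000298). In both genotypes at 9 months no treated library reached an untreated one, while at 3 months Pfkp was not called in either genotype (0.08, edgeR adjusted p = 0.762 in TSCmKO). Beside this, the 10 fibroblast and tendon markers summed to 1089.8 to 2552 CPM in 9mCON, 193 to 835 CPM in 9mCON+RM, 390.4 to 1307 CPM in 9mTSCmKO, against 458 to 798 CPM in 9mTSCmKO+RM, and the 8 macrophage markers to 49.5 to 148, 13.3 to 41.9, 48.6 to 90.6 and 36.5 to 53.2 CPM, and their part in the fall of Pfkp was not tested. Pfkl fell with rapamycin in 9mTSCmKO muscle (log2 fold change -0.50, SE 0.17, edgeR adjusted p = 0.0245). That call did not hold without any 1 of 9mTSCmKO replicate 2 or 9mTSCmKO+RM replicates 2, 4 or 5, with edgeR adjusted p up to 0.102.

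The 4 Pfkfb genes encode the enzymes that make and remove fructose 2,6-bisphosphate, the strongest activator of phosphofructokinase. All 4 fell with rapamycin in TSCmKO muscle at both ages. Pfkfb3 (ENSMUSG00000026773, chromosome 2, 11471433 to 11554077), a form with high kinase activity, was at 290.4, 226, 166, 212 and 454 CPM in 9mTSCmKO, against 102, 138, 103, 105 and 61.1 CPM in 9mTSCmKO+RM, without overlap (log2 fold change -1.41, SE 0.43, edgeR adjusted p = 0.0122). At 3 months it was at 810.1, 998, 599, 154 and 588 CPM and 345, 123, 74.2, 119 and 202 CPM, where replicate 4 of 3mTSCmKO lay within the treated range (log2 fold change -1.87, SE 0.44, edgeR adjusted p = 0.00164). Its spread within groups was wide, as in 3mCON with 543, 109.6, 471, 635 and 414 CPM, and the deletion itself was not called (-0.91, edgeR adjusted p = 0.0906 at 9 months and 0.53, edgeR adjusted p = 0.422 at 3 months). Against vehicle controls it was lower in 9mTSCmKO+RM (log2 fold change -2.32, edgeR adjusted p = 0.000124), the largest fall among the members in that comparison.

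Pfkfb4 (ENSMUSG00000025648, chromosome 9, 108991778 to 109032228) was at 24.8, 43.4, 35.6, 41.4 and 29.1 CPM in 3mCON and 53.4, 73.8, 56.6, 65.6 and 71.7 CPM in 3mTSCmKO, without overlap, which was the largest called rise among the members at 3 months (log2 fold change 0.88, SE 0.13, edgeR adjusted p = 4.18e-06). In 3mTSCmKO+RM it was at 38.8, 42.2, 43.9, 35.2 and 37.4 CPM, below all vehicle libraries (log2 fold change -0.70, SE 0.13, edgeR adjusted p = 0.000123). The drug effect differed from that in controls, where 3mCON+RM was at 36.6 ± 8.35 CPM (interaction -0.77, SE 0.19, edgeR adjusted p = 0.0141), the only member called in the interaction at 3 months. At 9 months Pfkfb4 was not called for the deletion (0.31, edgeR adjusted p = 0.0624), and the difference between the ages was not called either (-0.57, edgeR adjusted p = 0.0736). Pfkfb1, the form of liver and muscle, fell with rapamycin with log2 fold changes of -0.65 at 9 and -0.74 at 3 months, and Pfkfb2, the form of heart, with -0.41 and -0.40 (edgeR adjusted p = 0.00397, 0.0014, 0.0102 and 0.0149). For Pfkfb2 at 3 months the call was lost without any 1 of 3mTSCmKO replicate 4 or 3mTSCmKO+RM replicate 4, with edgeR adjusted p up to 0.0682, and 17.1% of its 31-base words also occur in transcripts of other genes.

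Of the 9 members of lower glycolysis, from aldolase to pyruvate kinase, 5 were called lower in 9mTSCmKO and 0 higher, beside 18.9% and 19.1% of all genes. Pgam2 (ENSMUSG00000020475, chromosome 11, 5801640 to 5803733), the muscle phosphoglycerate mutase, was at 1946, 3093, 1506, 1558 and 1469.8 CPM in 9mCON and 1075, 888, 1582, 726 and 889 CPM in 9mTSCmKO, with replicate 3 of 9mTSCmKO inside the control range (log2 fold change -0.89, SE 0.21, edgeR adjusted p = 0.000741). Rapamycin did not raise it but lowered it further, to 1001, 597, 521, 463 and 527 CPM in 9mTSCmKO+RM (log2 fold change -0.73, SE 0.21, edgeR adjusted p = 0.00592), and against 9mCON the difference was then -1.62 (edgeR adjusted p = 1.28e-07) with no overlap. It fell also in 9mCON+RM, at 1204 ± 351 CPM (-0.67, edgeR adjusted p = 0.0276), where the call was lost without any 1 of 9mCON replicates 1 or 2 or 9mCON+RM replicates 2, 4 or 5, with edgeR adjusted p up to 0.161. In 3mTSCmKO+RM it was lower than in 3mTSCmKO (-0.62, edgeR adjusted p = 0.0238). The difference was not called without any 1 of 3mTSCmKO replicates 4 or 5 or 3mTSCmKO+RM replicates 4 or 5, with edgeR adjusted p up to 0.068.

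Tpi1, which interconverts the 3-carbon sugars that aldolase releases, followed the same course with smaller steps. It fell with the deletion at 9 months (log2 fold change -0.34, SE 0.11, edgeR adjusted p = 0.0134) and with rapamycin in 9mTSCmKO (-0.36, edgeR adjusted p = 0.0115), 3mTSCmKO (-0.35, edgeR adjusted p = 0.0183) and 9mCON muscle (-0.34, edgeR adjusted p = 0.0385). From 2071 ± 224 CPM in 9mCON it came to 1636 ± 172 CPM in 9mTSCmKO, against 1277 ± 193 CPM in 9mTSCmKO+RM (SD, n = 5). Single libraries decided some of these small differences. For the deletion at 9 months the call was lost without 9mCON replicate 2, with edgeR adjusted p = 0.0508. It was also called lower in 3mTSCmKO than in 3mCON (-0.35, edgeR adjusted p = 0.0219), and there the call was lost without any 1 of 3mCON replicates 4 or 5 or 3mTSCmKO replicates 1 or 3, with edgeR adjusted p up to 0.0784. In 3mTSCmKO+RM against 3mTSCmKO the call was lost without any 1 of 3mTSCmKO replicate 2 or 3mTSCmKO+RM replicate 3, with edgeR adjusted p up to 0.0752, and in 9mCON+RM against 9mCON the call was lost without any 1 of 9mCON replicates 1 or 2 or 9mCON+RM replicates 1, 2 or 3, with edgeR adjusted p up to 0.128.

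Eno3 (ENSMUSG00000060600, chromosome 11, 70657202 to 70662513) was at 4973, 6733, 5114, 5112 and 4934 CPM in 9mCON and 2866, 3537, 4227, 3069 and 3845 CPM in 9mTSCmKO, without overlap (log2 fold change -0.61, SE 0.12, edgeR adjusted p = 8.94e-05). It fell at 3 months too, from 4910.2, 5667, 4227, 5862 and 5686 CPM in 3mCON to 3402, 4454, 3638, 3509.8 and 4128 CPM in 3mTSCmKO, where replicate 3 of 3mCON lay below replicate 2 of 3mTSCmKO (log2 fold change -0.46, SE 0.12, edgeR adjusted p = 0.00444). Rapamycin left it uncalled at both ages (0.23, edgeR adjusted p = 0.137 at 9 months). Eno1, the enolase of most tissues, was not called for the deletion at either age (0.31, edgeR adjusted p = 0.0522 at 9 months) and fell with rapamycin at 9 months, from 49.5, 69.5, 85.4, 54.8 and 53.02 CPM to 46.9, 38.9, 38.99, 38.5 and 32.1 CPM (log2 fold change -0.68, SE 0.13, edgeR adjusted p = 7.56e-05). Eno1 shares 27.9% of its 31-base words with other genes, nearly all of them with the retrocopy Eno1b, so that its value is uncertain.

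Aldoa fell in 9mTSCmKO, from 11476, 14737, 9774, 11595 and 11102 CPM to 6543, 7497, 9159, 6919 and 8764 CPM, without overlap (log2 fold change -0.59, SE 0.14, edgeR adjusted p = 0.000791). With rapamycin it rose to 15421, 11185, 9323, 8909.9 and 9756 CPM in 9mTSCmKO+RM, with overlap (log2 fold change 0.49, SE 0.14, edgeR adjusted p = 0.006). Aldoa was also called higher in 9mCON+RM than in 9mCON. That call was lost in 6 of 10 fits without 1 library, with edgeR adjusted p up to 0.14. Gapdh, which is widely used as a reference gene, was not called for the deletion (-0.25, edgeR adjusted p = 0.204 at 9 months) and rose with rapamycin in TSCmKO muscle at 9 (0.52, edgeR adjusted p = 0.00896) and 3 months (0.53, edgeR adjusted p = 0.00996). At 9 months the call was lost without 9mTSCmKO+RM replicate 1, with edgeR adjusted p = 0.0692. For Gapdh, 18.3% of the 31-base words occur in other genes of the table. Pgk1, which makes the first ATP of the route, fell with the deletion at 9 (-0.46, edgeR adjusted p = 0.00368) and 3 months (-0.35, edgeR adjusted p = 0.0444), and for the latter the call was lost without any 1 of 3mCON replicates 2, 4 or 5 or 3mTSCmKO replicates 1, 2, 3 or 4, with edgeR adjusted p up to 0.124. Without replicate 2 of 9mCON the 9-month difference of Pgk1 was -0.28 (edgeR adjusted p = 0.0414). Pgam1 was not called except with age in TSCmKO muscle, where the call was lost without any 1 of 3mTSCmKO replicates 1, 2, 3 or 5 or 9mTSCmKO replicates 1, 3 or 4, with edgeR adjusted p up to 0.17, and Pkm, pyruvate kinase, was called in none of the 13 comparisons (2867 ± 215 CPM in 9mCON and 2916 ± 465 CPM in 9mTSCmKO).

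The subunits of lactate dehydrogenase moved in opposite directions. Ldhb (ENSMUSG00000030246, chromosome 6, 142490249 to 142507957), the subunit of heart and slow muscle, had the largest rise of all members at 9 months. It was at 108, 182, 137, 149.9 and 163 CPM in 9mCON and 421, 636, 588, 524 and 321 CPM in 9mTSCmKO, without overlap (log2 fold change 1.75, SE 0.21, edgeR adjusted p = 1.56e-08). Ldha (ENSMUSG00000063229, chromosome 7, 46841475 to 46855627), the subunit of fast muscle, was at 2099.8, 3216, 1961, 2172 and 2057 CPM and 1099, 1291, 1876, 971 and 1559 CPM in the same groups, lower in every 9mTSCmKO library (log2 fold change -0.76, SE 0.16, edgeR adjusted p = 0.000172). The Ldha promoter printed above was chosen for holding ACGTG. Neither the second annotated Ldha promoter nor that of Ldhb holds it, and the part of these letters in the changes was not tested.

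At 3 months Ldhb was at 151, 143, 199, 151 and 156 CPM in 3mCON and 244, 139.99, 246, 481 and 224 CPM in 3mTSCmKO. Replicate 4 of 3mTSCmKO stood far above the others and replicate 2 below the lowest control (log2 fold change 0.74, SE 0.21, edgeR adjusted p = 0.00806), and without replicate 4 the difference was 0.40 (edgeR adjusted p = 0.117) and not called. Ldha fell at 3 months as well, from 2444, 2750.4, 2172, 2431 and 2434 CPM to 1318, 1746, 1547, 1550.3 and 1572 CPM, without overlap (log2 fold change -0.66, SE 0.16, edgeR adjusted p = 0.00168). The larger rise of Ldhb at 9 months passed the interaction test (1.01, SE 0.29, edgeR adjusted p = 0.0338), but the call was lost without any 1 of 3mCON replicate 3 or 3mTSCmKO replicates 1, 2, 3 or 5 or 9mCON replicates 3 or 4 or 9mTSCmKO replicates 2, 3 or 4, with edgeR adjusted p up to 0.0725, and with insert size as a term it was not called.

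Rapamycin lowered Ldhb in TSCmKO muscle and left Ldha without a call. Ldhb was at 285, 185, 196, 194 and 198 CPM in 9mTSCmKO+RM, below all vehicle libraries (log2 fold change -1.24, SE 0.21, edgeR adjusted p = 1.55e-05), and at 141, 148, 91.5, 113 and 114 CPM in 3mTSCmKO+RM (log2 fold change -1.14, SE 0.21, edgeR adjusted p = 6.59e-05). Ldha did not pass the test at 9 (0.05, edgeR adjusted p = 0.819) or 3 months (0.05, edgeR adjusted p = 0.863). Against vehicle controls Ldha stayed lower in 9mTSCmKO+RM (-0.71, edgeR adjusted p = 0.000532) and 3mTSCmKO+RM (-0.61, edgeR adjusted p = 0.00427).

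Fiber-type markers also differed between the groups. The 9 slow-fiber markers (Myh7, Tnnt1 and others) summed to 178 to 280.1 CPM in 9mCON, 1306 to 3229 CPM in 9mTSCmKO, against 1130.01 to 1569 CPM in 9mTSCmKO+RM, and all 9 were called higher with the deletion at 9 months. At 3 months the sums were 219 to 762 CPM in 3mCON and 364 to 1489 CPM in 3mTSCmKO, with 2 of 9 called higher. The 12 fast-fiber markers summed to 165619 to 181316 CPM in 9mCON, 106710.00 to 122602 CPM in 9mTSCmKO, against 155275 to 186771 CPM in 9mTSCmKO+RM, with 5 of 12 called lower with the deletion. The part of fiber type in the changes of Ldhb, Ldha, Slc16a1, Slc2a4, Pygm and the lower glycolysis genes was not tested.

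Fbp2 (ENSMUSG00000021456, chromosome 13, 62836877 to 62858422) encodes muscle fructose bisphosphatase, which runs the phosphofructokinase step in reverse and serves glycogen synthesis from lactate. It had the largest fall of all members at both ages. It was at 31.6, 51.1, 35.4, 24.5 and 23.2 CPM in 9mCON and 6.66, 3.12, 10.1, 3.35 and 5.03 CPM in 9mTSCmKO (log2 fold change -2.55, SE 0.30, edgeR adjusted p = 1.31e-08), and at 32.5, 40.7, 24.4, 38.03 and 34.98 CPM in 3mCON and 4.94, 8.56, 5.04, 9.15 and 6.95 CPM in 3mTSCmKO (log2 fold change -2.29, SE 0.29, edgeR adjusted p = 2e-07). At both ages every TSCmKO library lay below every control library.

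Rapamycin raised Fbp2 in part. The libraries were at 11.5, 10.4, 9.79, 10.6 and 8.17 CPM in 9mTSCmKO+RM (log2 fold change 0.83, SE 0.30, edgeR adjusted p = 0.0295) and 12.2, 12.2, 9.81, 22.2 and 12.1 CPM in 3mTSCmKO+RM (log2 fold change 0.98, SE 0.29, edgeR adjusted p = 0.0109). At 9 months the call was lost without any 1 of 9mTSCmKO replicates 2, 4 or 5 or 9mTSCmKO+RM replicates 1 or 2, with edgeR adjusted p up to 0.0932, and at 3 months the call was lost without 3mTSCmKO+RM replicate 4, with edgeR adjusted p = 0.0704. Against vehicle controls Fbp2 stayed lower, with log2 differences of -1.71 at 9 and -1.31 at 3 months (edgeR adjusted p = 1.52e-05 and 0.000806), with no overlap at either age.

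Gpd1 (ENSMUSG00000023019, chromosome 15, 99717515 to 99725005), the cytosolic enzyme of the glycerol phosphate shuttle that carries reducing equivalents to mitochondria, was at 619, 673, 754, 768 and 751 CPM in 9mCON and 341, 409, 305, 314 and 413 CPM in 9mTSCmKO, without overlap (log2 fold change -1.001, SE 0.16, edgeR adjusted p = 3.73e-06). The gene also fell at 3 months (log2 fold change -0.43, SE 0.16, edgeR adjusted p = 0.0474), and the difference between the ages was not called (-0.57, edgeR adjusted p = 0.138). For the 3-month fall the call was lost without any 1 of 3mCON replicates 1, 2, 4 or 5 or 3mTSCmKO replicates 1, 3 or 4, with edgeR adjusted p up to 0.15. Rapamycin did not bring it back. In 9mTSCmKO+RM it was at 448, 398, 349, 265 and 247 CPM (-0.06, edgeR adjusted p = 0.788 against 9mTSCmKO), and in 3mTSCmKO+RM it was below 3mTSCmKO (-0.44, edgeR adjusted p = 0.0379), where the call was lost without any 1 of 3mTSCmKO replicates 2 or 5 or 3mTSCmKO+RM replicates 3, 4 or 5, with edgeR adjusted p up to 0.163.

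**Figure D3:**
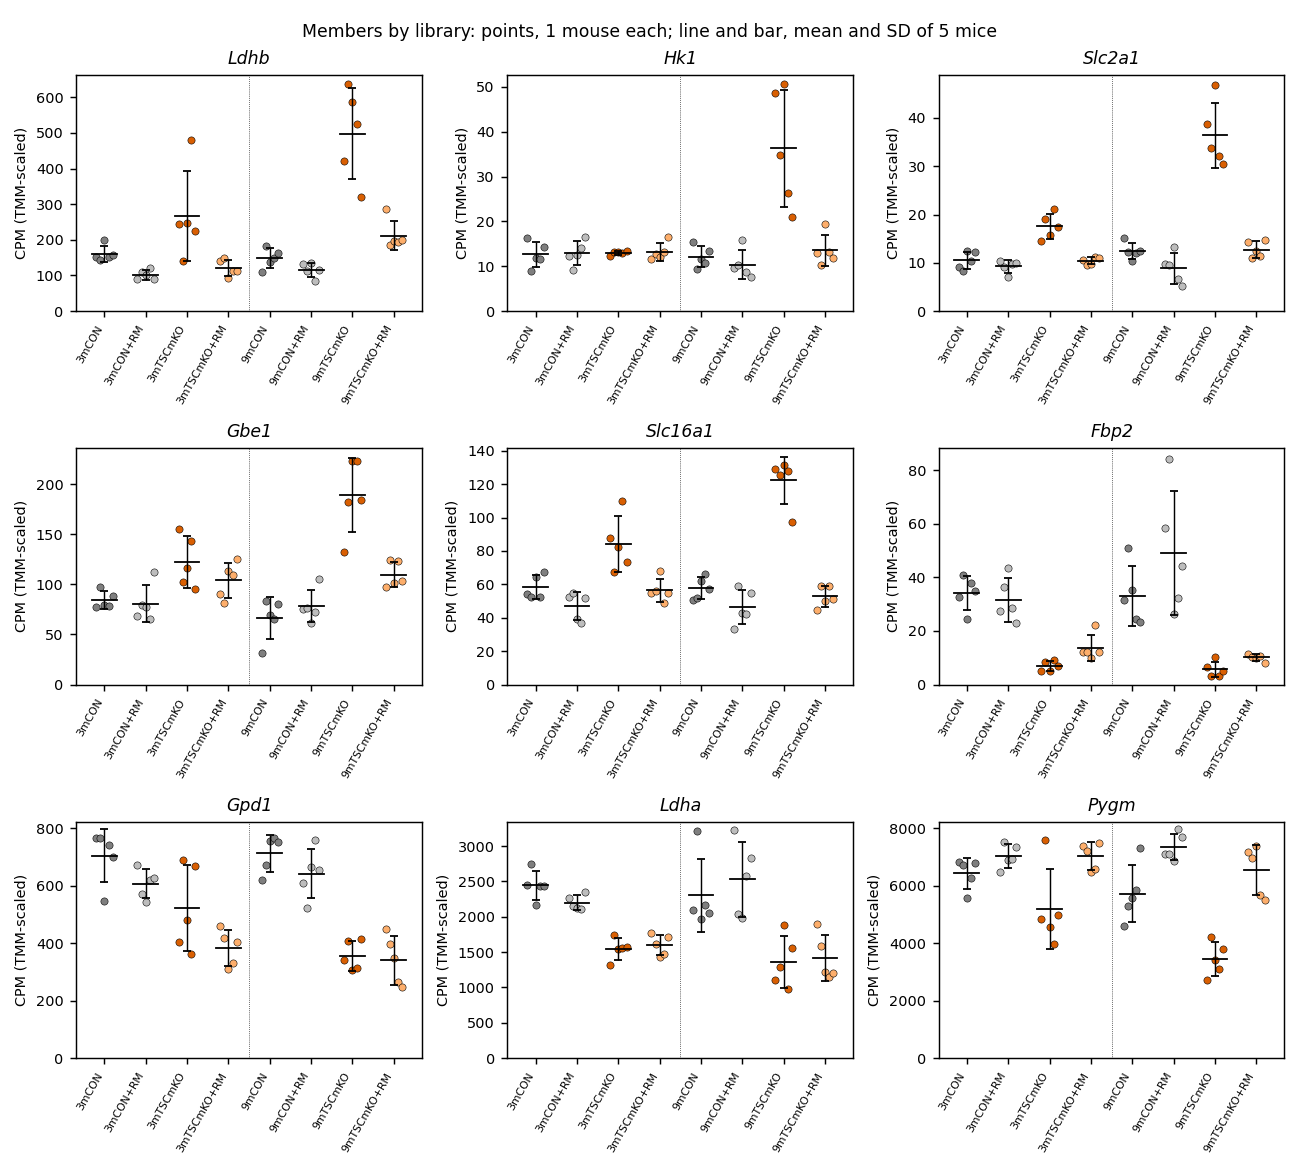
Level in TMM-scaled CPM (y axis, from 0) by group (x axis) for 9 members. Each point is 1 mouse, lines and bars give the mean and SD of 5, orange marks TSCmKO and paler colors rapamycin. Ldhb, Hk1, Slc2a1, Gbe1 and Slc16a1 are highest in 9mTSCmKO, and Fbp2 lies at 3.12 to 10.1 CPM there against 23.2 to 51.1 CPM in 9mCON.

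On the glycogen side the branching enzyme rose and phosphorylase fell. Gbe1 (ENSMUSG00000022707, chromosome 16, 70313949 to 70569716), which adds branches to the growing chain, was at 31.2, 83.9, 69.8, 65.6 and 80.6 CPM in 9mCON and 133, 183, 223, 223 and 185 CPM in 9mTSCmKO, without overlap (log2 fold change 1.51, SE 0.19, edgeR adjusted p = 3.21e-08). Younger mice showed a smaller rise, with 84.3 ± 8.73 CPM in 3mCON against 122 ± 26.03 CPM in 3mTSCmKO (log2 fold change 0.54, SE 0.18, edgeR adjusted p = 0.033). This difference lost its call without any 1 of 3mCON replicates 1, 3 or 4 or 3mTSCmKO replicates 1 or 4, with edgeR adjusted p up to 0.115. The rise was larger at 9 months by 0.97 (SE 0.26, edgeR adjusted p = 0.0224). Significance was lost without 3mTSCmKO replicate 5, with edgeR adjusted p = 0.052. With rapamycin Gbe1 was at 97.3, 124, 102, 123 and 103 CPM in 9mTSCmKO+RM, between the groups (log2 fold change -0.78, SE 0.19, edgeR adjusted p = 0.00117 against 9mTSCmKO and 0.73, edgeR adjusted p = 0.00229 against 9mCON). The drug effect in TSCmKO muscle differed from that in controls (interaction -1.03, SE 0.26, edgeR adjusted p = 0.0162).

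Pygm (ENSMUSG00000032648, chromosome 19, 6384399 to 6398459) was at 4619, 5293, 5585, 5859 and 7307 CPM in 9mCON and 2712, 4235, 3404, 3116 and 3792 CPM in 9mTSCmKO, without overlap (log2 fold change -0.73, SE 0.13, edgeR adjusted p = 3.68e-05). Rapamycin raised it to 7185, 6956, 7405, 5686 and 5519 CPM in 9mTSCmKO+RM, above all vehicle libraries (log2 fold change 0.92, SE 0.13, edgeR adjusted p = 1.55e-06), the largest rise among the members in that comparison, and the difference from 9mCON was then not called (0.19, edgeR adjusted p = 0.29). At 3 months the deletion was not called (-0.31, edgeR adjusted p = 0.0993), with replicate 2 of 3mTSCmKO at 7592 CPM and the other 4 libraries at 3959 to 4987 CPM. The rapamycin effect at 3 months was called (0.44, edgeR adjusted p = 0.0137). The call was lost without 3mTSCmKO replicate 4, with edgeR adjusted p = 0.0567.

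Phosphorylase kinase switches phosphorylase on in contraction, and its catalytic and beta subunits fell at 9 months. Phkg1 (ENSMUSG00000025537, chromosome 5, 129863421 to 129898549), the catalytic subunit of muscle, was at 522, 522, 517, 541 and 551 CPM in 9mCON and 304, 357, 311, 294 and 366 CPM in 9mTSCmKO, without overlap (log2 fold change -0.70, SE 0.11, edgeR adjusted p = 3.55e-06), and rapamycin left it uncalled there (-0.07, edgeR adjusted p = 0.639). Phkb (ENSMUSG00000036879, chromosome 8, 85840959 to 86061376), a regulatory subunit, fell from 420.2, 427, 624, 578 and 654 CPM to 280.2, 447, 285, 429 and 397 CPM with overlap (log2 fold change -0.56, SE 0.16, edgeR adjusted p = 0.00496) and rose with rapamycin to 421, 668, 613, 585 and 486 CPM (log2 fold change 0.59, SE 0.16, edgeR adjusted p = 0.00358). Phka1, the alpha subunit, and Ppp1r3a, which anchors protein phosphatase 1 to glycogen, were not called for the deletion and fell with rapamycin at 3 months, with log2 fold changes of -0.70 and -0.91 (edgeR adjusted p = 0.0012 and 0.0005). Ugp2, which makes the UDP-glucose that glycogen is built from, did so as well, from 1047, 969, 993, 1397 and 896 CPM in 3mTSCmKO to 581, 541, 674, 648 and 608 CPM in 3mTSCmKO+RM, without overlap (log2 fold change -0.80, SE 0.16, edgeR adjusted p = 0.000213).

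Glycogen synthase itself, Gys1, was called in none of the 13 comparisons (380.5 ± 112 CPM in 9mCON and 433 ± 89.8 CPM in 9mTSCmKO, SD, n = 5). Gyg, the primer of glycogen, was higher with rapamycin at 9 months in CON (log2 fold change 0.61, SE 0.13, edgeR adjusted p = 0.00112) and TSCmKO muscle (log2 fold change 0.39, SE 0.13, edgeR adjusted p = 0.0165), and for the latter the call was lost without any 1 of 9mTSCmKO replicates 1 or 2, with edgeR adjusted p up to 0.0626. The fast-fiber sums given above beside Gpi1 were higher in the same treated controls. Ppp1r3c, another glycogen subunit of protein phosphatase 1, was not called in any comparison and varied widely within groups, with 306, 723, 451, 1504 and 939.8 CPM in 3mTSCmKO. The 5 members without a call in any comparison were Hk2, Pfkm, Pkm, Gys1 and Ppp1r3c.

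For steps with more than 1 isoform, the share of the minor isoform in the summed TPM was compared in 4 comparisons with an exact two-sided permutation test of 5 against 5 libraries, for which 0.00794 is the smallest p possible. There were 7 shares and 28 tests, adjusted together by the Benjamini-Hochberg method. Where genes of a share are also members described above, the share is another view of the same libraries. In 9mTSCmKO against 9mCON all 7 shares were higher, and 6 of them had no overlap between the groups.

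Ldhb made up 6.99, 7.49, 8.52, 8.69 and 9.59% of Ldha and Ldhb in the 9mCON libraries and 35.2, 40.6, 31.4, 42.9 and 22.9% in the 9mTSCmKO libraries. The difference was 26.4 percentage points (exact p = 0.00794, adjusted p = 0.0171). In 9mTSCmKO+RM the share was 17.2% ± 2.06 (SD, n = 5), lower than in 9mTSCmKO (exact p = 0.00794, adjusted p = 0.0171) and, in each library, above the highest 9mCON value. At 3 months it was 8.38% ± 1.73 in 3mCON and 19.02% ± 7.45 in 3mTSCmKO (exact p = 0.0159, adjusted p = 0.0317), with overlap.

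Slc2a1 made up 3.09, 1.86, 1.67, 1.93 and 1.87% of both glucose carriers in 9mCON and 11.1, 7.90, 11.9, 7.69 and 7.18% in 9mTSCmKO, a difference of 7.08 percentage points (exact p = 0.00794, adjusted p = 0.0171). It was the one share without overlap in all 4 comparisons, with 1.64% ± 0.149 in 3mCON, 3.38% ± 0.240 in 3mTSCmKO and 2.15% ± 0.281 in 3mTSCmKO+RM. Slc2a4 thus remained the main glucose carrier in transcript level in each library. Slc16a1 made up 13.8, 12.6, 14.7, 13.5 and 12.3% of both lactate carriers in 9mCON and 28.9, 28.3, 30.2, 33.03 and 24.4% in 9mTSCmKO, again without overlap (exact p = 0.00794, adjusted p = 0.0171). At 3 months the difference was 6.57 percentage points and not called (exact p = 0.0952, adjusted p = 0.121).

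Hk1 made up 4.51% ± 0.977 of Hk1 and Hk2 in 9mCON and 10.3% ± 4.002 in 9mTSCmKO (exact p = 0.00794, adjusted p = 0.0171), and 5.96% ± 1.49 in 9mTSCmKO+RM (exact p = 0.0317, adjusted p = 0.0494). The enolase, mutase and phosphofructokinase shares stayed small in every group. Eno1 held 0.864% ± 0.176 of Eno1 and Eno3 in 9mCON and 1.59% ± 0.218 in 9mTSCmKO (exact p = 0.00794, adjusted p = 0.0171). Pgam1 held 0.518% ± 0.150 of Pgam1 and Pgam2 in 9mCON and 0.865% ± 0.160 in 9mTSCmKO (exact p = 0.00794, adjusted p = 0.0171), and it was the one share that passed the test as higher with rapamycin, at 1.03% ± 0.193 in 3mTSCmKO+RM against 0.625% ± 0.0950 in 3mTSCmKO (exact p = 0.00794, adjusted p = 0.0171). Pfkl and Pfkp held 0.477% ± 0.0639 of all phosphofructokinase in 9mCON and 0.655% ± 0.118 in 9mTSCmKO, with overlap (exact p = 0.0238, adjusted p = 0.0392).

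**Figure D4:**
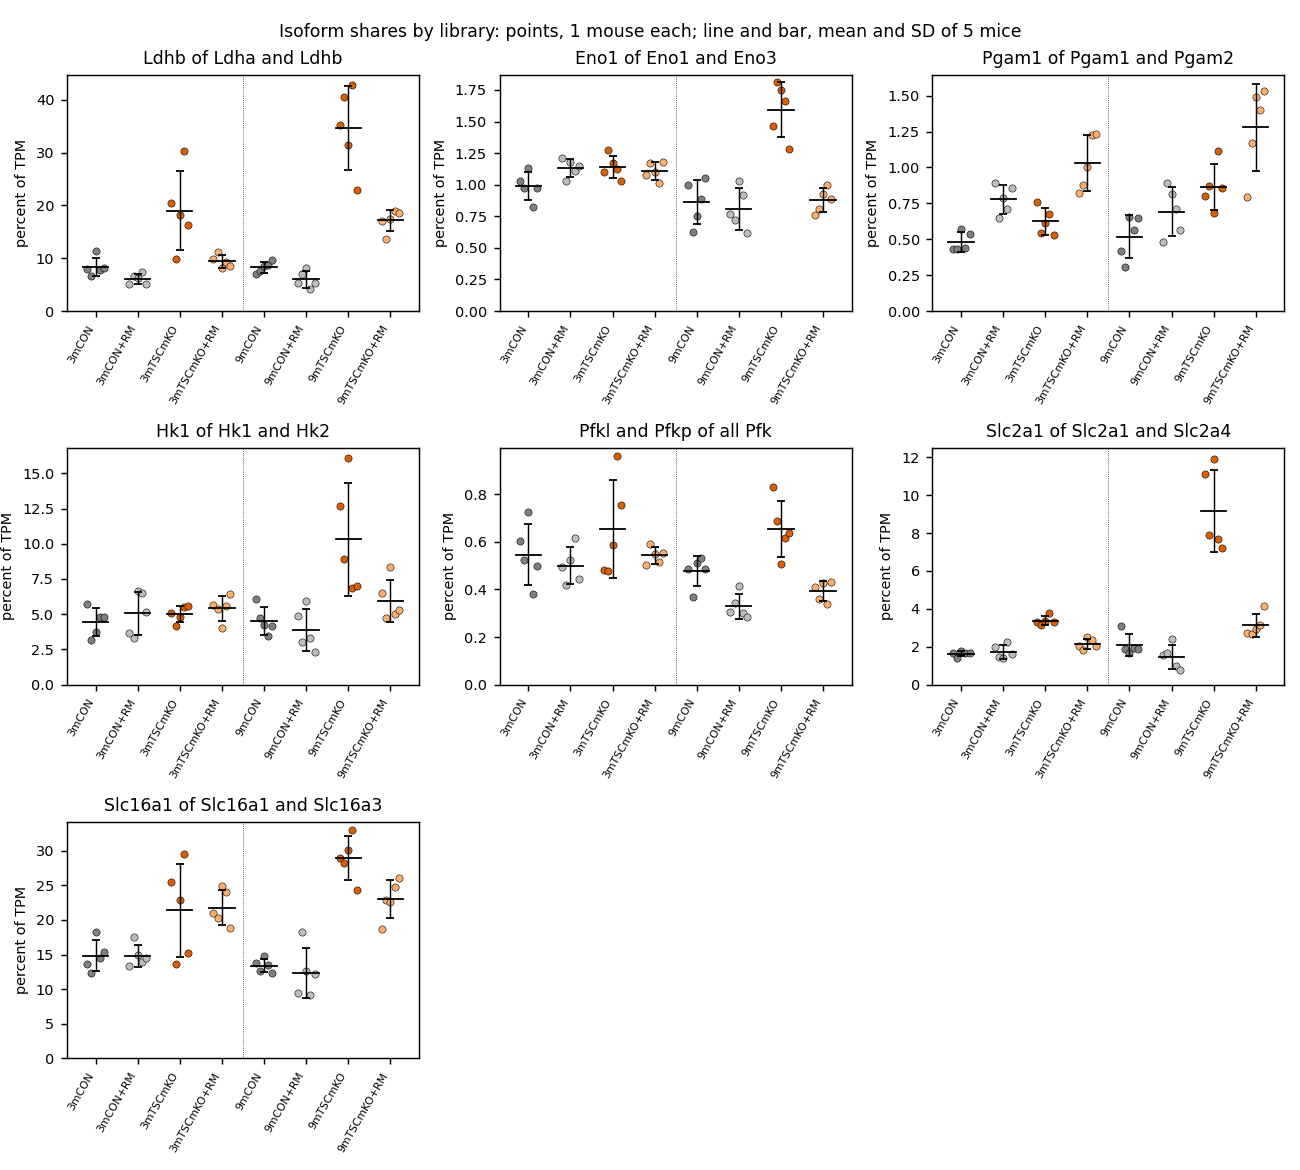
Share of the minor isoform in the summed TPM of the named isoforms, in percent (y axis, from 0), by group (x axis). Each point is 1 mouse, and lines and bars give the mean and SD of 5. The Ldhb share reaches 22.9 to 42.9% in 9mTSCmKO against 6.99 to 9.59% in 9mCON.

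Other genes of the pathway were taken from a list of 69 by role, of which 66 were found and 56 tested. In 9mTSCmKO against 9mCON 10 rose and 11 fell, which is 37.5% of those tested, beside 37.9% of all genes. By role these were 3 lower of 10 in glycolysis, 4 higher and 4 lower of 14 in glycogen metabolism, 4 and 3 of 12 in transport, 2 and 1 of 7 in the pentose phosphate path and 0 of 13 transcriptional and signaling regulators such as Hif1a and Myc by edgeR. Of the regulators 5 had an unadjusted p under 0.05, DESeq2 and limma each called 1, and 5 were called without replicate 2 of 9mCON. With only the groups compared in the fit 1 was called in glycolysis and 5 in glycogen metabolism, and without replicate 1 of 9mTSCmKO 5 were called in the pentose phosphate path. In 9mTSCmKO+RM against 9mTSCmKO 11 rose and 14 fell, which is 44.6% of those tested, beside 32.6% of all genes, and among them were 4 and 4 of the 13 regulators. The 10 rises with the deletion and these 14 falls each count Gys2, which passed the filter on low counts only through 9mTSCmKO. The count of 8 regulators was 4 with only the groups compared and 5 by limma.

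Pgd, an enzyme of the pentose phosphate path, was at 15.5, 14.3, 13.6, 14.2 and 14.3 CPM in 9mCON, 35.1, 28.8, 52.2, 27.7 and 24.9 CPM in 9mTSCmKO, against 16.2, 13.9, 17.02, 17.6 and 16.3 CPM in 9mTSCmKO+RM. It rose with the deletion at 9 months (log2 fold change 1.23, SE 0.14, edgeR adjusted p = 9.32e-09) and fell with rapamycin (log2 fold change -1.05, SE 0.14, edgeR adjusted p = 4.72e-07), while at 3 months the deletion was not called (0.35, edgeR adjusted p = 0.0805). The difference between ages was 0.88 (SE 0.20, edgeR adjusted p = 0.00807). Tbc1d4 (AS160), which holds GLUT4 inside the cell until insulin acts, rose from 10.7, 15.02, 24.9, 25.4 and 38.5 CPM to 34.4, 52.2, 32.8, 50.7 and 37.1 CPM with overlap (log2 fold change 0.85, SE 0.26, edgeR adjusted p = 0.0103) and was not called for rapamycin (0.18, edgeR adjusted p = 0.624). Pgm5, a relative of the phosphoglucomutases, was at 18.2, 12.3, 18.9, 20.7 and 26.5 CPM in 9mCON, 28.2, 41.1, 27.4, 39.1 and 28.8 CPM in 9mTSCmKO and 18.1, 21.4, 26.7, 22.1 and 18.8 CPM in 9mTSCmKO+RM. The 9mTSCmKO libraries lay above those of both other groups, with a rise for the deletion (log2 fold change 0.76, SE 0.16, edgeR adjusted p = 0.000175) and a fall with rapamycin (log2 fold change -0.62, SE 0.16, edgeR adjusted p = 0.00234) that limma on log2(TPM + 1) did not call. At 3 months the deletion was not called for Pgm5 (-0.03, edgeR adjusted p = 0.914).

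Slc2a12, the sugar carrier GLUT12, fell from 11.7, 11.5, 14.8, 15.5 and 13.1 CPM in 9mCON to 1.51, 3.53, 3.07, 4.50 and 4.46 CPM in 9mTSCmKO (log2 fold change -1.96, SE 0.18, edgeR adjusted p = 5.07e-11), and rose with rapamycin to 5.95, 6.74, 6.14, 4.83 and 5.98 CPM in 9mTSCmKO+RM (log2 fold change 0.79, SE 0.19, edgeR adjusted p = 0.00114). Bpgm, which makes 2,3-bisphosphoglycerate, fell from 203, 261, 154, 138 and 119.6 CPM to 97.01, 74.1, 104, 79.01 and 90.9 CPM (log2 fold change -0.97, SE 0.17, edgeR adjusted p = 1.37e-05) and was not called for rapamycin (-0.36, edgeR adjusted p = 0.0983). Bpgm is abundant in red cells, whose marker sums are given above beside Slc2a1, and their part in its fall was not tested. The entry named Pgm2 (ENSMUSG00000025791, chromosome 4, 99929414 to 99987294), a phosphoglucomutase, which links glucose 1-phosphate from glycogen to glycolysis, fell from 1327 ± 183 CPM in 9mCON to 697 ± 140.00 CPM in 9mTSCmKO (log2 fold change -0.93, SE 0.14, edgeR adjusted p = 2.18e-06) and stayed there with rapamycin, at 702 ± 162 CPM (0.01, edgeR adjusted p = 0.962).

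**Figure D5:**
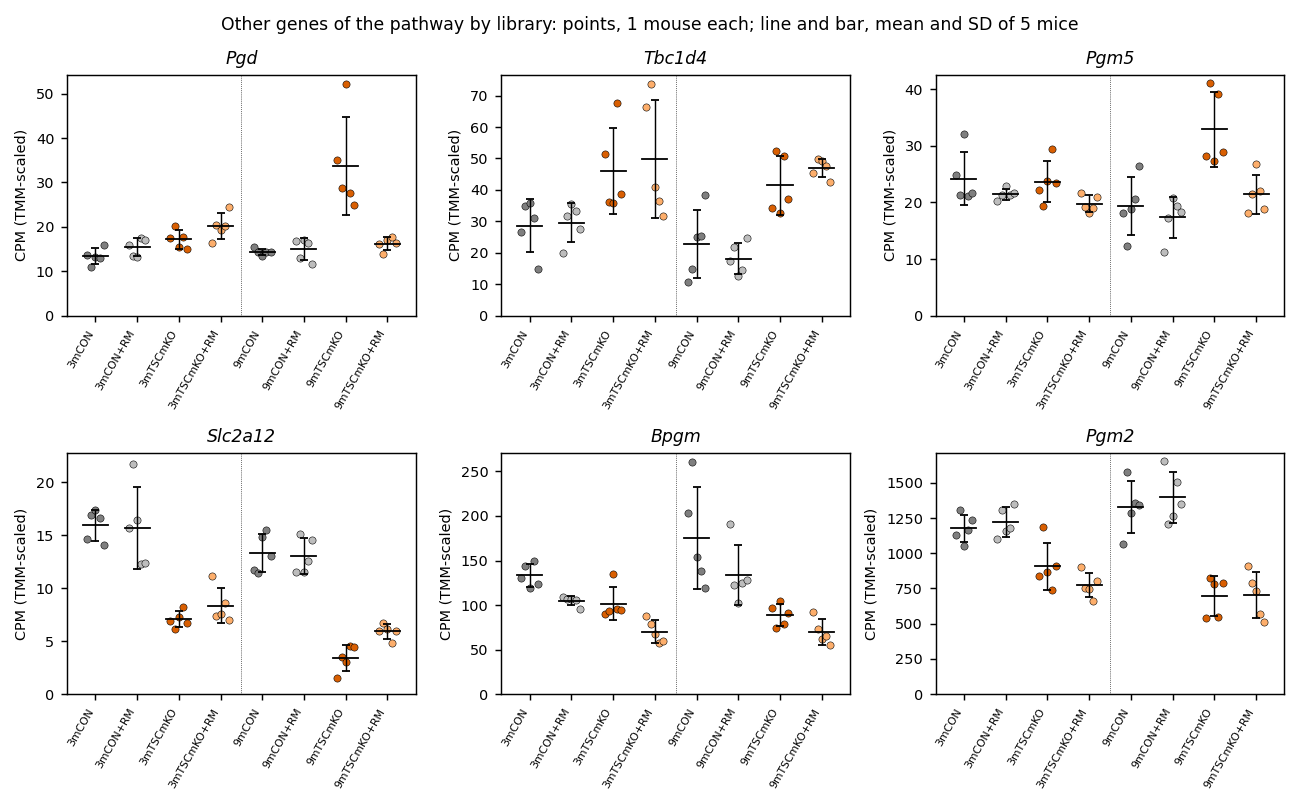
Level in TMM-scaled CPM (y axis, from 0) by group (x axis) for 6 other genes of the pathway, the 3 largest rises and the 3 largest falls among those reported, in 9mTSCmKO against 9mCON with a mean of at least 5 CPM. Each point is 1 mouse, and lines and bars give the mean and SD of 5. Slc2a12 lies at 1.51 to 4.50 CPM in 9mTSCmKO and 11.5 to 15.5 CPM in 9mCON.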

How the data were processed

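Poly(A) mRNA of 40 EDL muscles, 5 mice in each of 8 groups by the sample labels, was sequenced as directional single-end reads. The authors trimmed adapters with Cutadapt 1.9.1, aligned with kallisto 0.43.1 to Ensembl GRCm38 transcripts, divided reads with several hits among them and summed transcripts per gene. They deposited estimated counts per gene, as whole numbers, and TPM. Their methods name protein-coding transcripts as the reference, but the tables also hold noncoding RNAs such as Malat1 and Neat1, so that the exact set is uncertain.

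Here the counts were tested with edgeR 4.0.16 (R 4.3.3) quasi-likelihood fits over all 8 groups, with TMM scaling and genes of at least 1 CPM in at least 5 libraries. Adjusted p-values cover all 13543 genes tested. TPM served for levels, sums and shares. Members and lists were chosen with earlier results of these data known. Named were the 5 largest called rises and falls at 9 months, up to 3 in other comparisons and 4 per interaction, with a mean of at least 5 CPM. 1 gene of the pathway list is not reported here. Shared sequence was counted in words of 31 bases. The fit was tested on simulated data. Alternatives were RLE and upper-quartile scaling, no filter, a replicate block, insert size (1 library without it was left out), only the groups compared, DESeq2 1.42.0, limma 3.58.1 on log2(TPM + 1) and leaving out each library. Total counts were 8883870 to 35224669, and among the members Pfkfb3 had the largest SE for the deletion at 9 months (0.43).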

Additional observations from a re-analysis of the deposited data

Results flagged for a closer look

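Among the 296 sets of 5 libraries (37 members in 8 groups), 23 held 1 library whose gap to the nearest other exceeded 0.71 of the whole range, where chance gives about 5%. Several of these fell on the same library. Replicate 2 of 9mCON was high for Ldha (3216 CPM, others 1961 to 2172), Eno3 (6733, others 4934 to 5114), Pgk1 (1205, others 646 to 774) and Gyg (592, others 403 to 451). Replicate 1 of 9mTSCmKO+RM was high for Gapdh (10317 CPM, others 5699 to 6843), Pgam2 (1001, others 463 to 597) and Ldhb (285, others 185 to 198). Replicate 2 of 3mCON+RM was high for Aldoa (16006 CPM, others 12457 to 13183), Gapdh (8927, others 6987 to 7413) and Pfkfb4 (51.4, others 31.5 to 34.7).

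In 3mCON, replicate 4 was high for Gapdh (6637 CPM, others 6109.8 to 6225) and replicate 3 for Ldhb (199, others 143 to 156) and Pfkfb2 (26.9, others 20.8 to 22.5). In 3mTSCmKO, replicate 5 was high for Pgk1 (706 CPM, others 626 to 640.1), replicate 1 low for Pgam2 (842, others 1161 to 1269) and replicate 2 high for Pygm (7592, others 3959 to 4987). In 9mCON+RM, replicate 1 was high for Aldoa (20398 CPM, others 13844 to 15519.8), replicate 4 for Phkg1 (605, others 486 to 512) and replicate 5 for Pfkfb3 (608, others 206 to 235). The other cases were Pkm in replicate 5 of 3mCON+RM (3114 CPM, others 2309 to 2491), Fbp2 in replicate 4 of 3mTSCmKO+RM (22.2, others 9.81 to 12.2), Slc16a1 in replicate 5 of 9mTSCmKO (97.1, others 126 to 131) and Pfkfb1 in replicate 1 of 9mCON (26.04, others 37.8 to 38.9).

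Effects that differed between groups by an edgeR interaction test were those of genotype by age, with Hk1 at 1.54, Ldhb at 1.01, Gbe1 at 0.97 and Slc2a1 at 0.80 on the log2 scale, and those of rapamycin by genotype at 9 months, with Hk1 at -1.20, Gbe1 at -1.03, Slc2a1 at -1.02, Slc16a1 at -0.90 and Slc16a3 at -0.73. At 3 months Pfkfb4 was at -0.77.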

How the results depend on the processing

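No call of a member turned its direction under any alternative that was run. The count of members called stayed within 1.5 times under every alternative for 9mTSCmKO against 9mCON, 9mTSCmKO+RM against 9mTSCmKO, 3mTSCmKO+RM against 3mTSCmKO, both rapamycin-treated TSCmKO groups against vehicle controls, and 9mCON against 3mCON. For 9mCON+RM against 9mCON it went from 7 to 4 with no filter and to 1 with only the groups compared. For 3mCON+RM against 3mCON it went from 0 to 4 with only the groups compared, 1 by DESeq2 and 2 by limma. For 9mTSCmKO against 3mTSCmKO it went from 18 to 2 with insert size as a term and 10 with only the groups compared, for genotype by age from 4 to 2 under both, for rapamycin by genotype at 9 months from 5 to 2 with only the groups compared, and at 3 months from 1 to 5 with only the groups compared and 2 by DESeq2 and by limma. The cause was not tested. Fits of only the groups compared use fewer samples, and their counts went up in some comparisons and down in others. Leaving out 1 library gave 7 to 12 calls for 3mTSCmKO against 3mCON, 4 to 6 for 9mCON+RM against 9mCON, 1 to 7 for genotype by age and 1 to 2 for rapamycin by genotype at 3 months. The same replicate number was not treated as marking paired mice. In no comparison were all 5 correlations of same-numbered libraries over 0.1, and they ran from -0.36 to 0.29. For 9mTSCmKO against 9mCON 2 of them were over 0.1, and such correlations cannot exclude shared litters. With the replicate block 18 members were called for 9mTSCmKO against 9mCON, 11 at 3 months, 22 and 20 for rapamycin in TSCmKO muscle at 9 and 3 months, 6 in 9mCON+RM, where Slc2a1 lost its call, and 16 for 9mTSCmKO against 3mTSCmKO.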

Other observations

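Stbd1, which tethers glycogen to membranes, was chosen from the other pathway genes after its values were seen. It was at 42.3, 38.9, 26.2, 30.7 and 37.3 CPM in 3mCON and 12.4, 21.8, 14.6, 13.6 and 15.04 CPM in 3mTSCmKO (log2 fold change -1.18, SE 0.14, edgeR adjusted p = 3.86e-08), and at 32.7, 40.1, 34.6, 34.4 and 32.5 CPM in 9mCON and 46.8, 53.8, 66.5, 52.1 and 65.5 CPM in 9mTSCmKO (log2 fold change 0.71, SE 0.14, edgeR adjusted p = 8.18e-05). The groups did not overlap at either age, and the direction was opposite at 3 and 9 months (interaction 1.89, edgeR adjusted p = 3.73e-08). Rapamycin raised it at 3 months in TSCmKO muscle to 29.6, 31.04, 45.5, 37.999 and 34.5 CPM (log2 fold change 1.21, SE 0.14, edgeR adjusted p = 2.81e-08). At 9 months it was higher with the drug in controls, at 71.1, 71.98, 60.7, 55.96 and 67.2 CPM in 9mCON+RM (log2 fold change 0.91, SE 0.14, edgeR adjusted p = 3.34e-05), and was not called in TSCmKO muscle, at 76.1, 77.6, 74.7, 75.9 and 55.9 CPM in 9mTSCmKO+RM (0.34, edgeR adjusted p = 0.0524), where it stayed above 9mCON (1.05, edgeR adjusted p = 1.87e-07).

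Gys2, the glycogen synthase of liver, was chosen in the same way and is low throughout. It was at 2.70, 1.53, 3.41, 1.56 and 0.919 CPM in 9mTSCmKO, at 0.0755 to 0.207 CPM in 9mCON and at 0 to 0.403 CPM in 9mTSCmKO+RM, with at least 1 library listed at 0 in the last group. All 5 libraries of 9mTSCmKO lay above those of both other groups. Gys2 passed the filter on low counts only through 9mTSCmKO, where it is high, so that no test is given here. It is still among the 4 genes of glycogen metabolism counted as higher in 9mTSCmKO, and among the pathway genes counted as lower in 9mTSCmKO+RM.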
